A study of Heterocephalus glaber with 2 samples.

Results

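The genes described here encode the proteins of the mitochondrial ribosome in the skin of the naked mole-rat (Heterocephalus glaber), a long-lived subterranean rodent. They were taken as every locus whose gene name, with case ignored, is MRPL or MRPS followed by a number alone. The rule found 59 genes among 24514 loci, 40 named for the large subunit (MRPL) and 19 for the small subunit (MRPS), and no symbol had more than 1 locus. Total RNA of full-thickness skin from the back was sequenced after removal of ribosomal RNA, from young animals of 4 years and old animals of 19 years. Each age is recorded as 1 sample with 2 deposited tables, numbered 1 and 2. The tables are taken here as the libraries young 1 and young 2 or old 1 and old 2. The labels record no treatment, and do not tell if libraries of equal age are from separate animals, so every p-value measures only the spread between libraries, which may be technical.

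The mitochondrial ribosome translates the few proteins that mitochondrial DNA encodes, all of them parts of the respiratory chain or ATP synthase. Its RNAs come from mitochondrial DNA, whereas all of its proteins are encoded in the nucleus, made in the cytosol and imported. The small subunit holds the messenger RNA and checks the pairing with transfer RNA, and the large subunit joins the amino acids. Many of these proteins have bacterial counterparts and others are found in mitochondria alone. In Caenorhabditis elegans, knockdown of the counterpart of MRPS5 lengthens life.

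The libraries differed by number more than by age. Small structural RNAs took 47.4% of the summed FPKM (fragments scaled to locus length and library size) in young 1 and 51.5% in old 1, against 0.0890% in young 2 and 0.322% in old 2. Mitochondrially encoded protein genes took 5.77% of young 1 and 4.06% of old 1, but 23.2% of young 2 and 29.6% of old 2. Depth is unknown, because the tables hold FPKM and no counts. The ages were therefore compared over all 4 libraries and also within each number, where 1 library stood against 1 and no test was possible.

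All 59 genes were measured above the floor of the tables in every library, and all 59 passed the minimum mean of 1 FPKM, as did 12753 loci in all. Their mean FPKM over the 4 libraries ran from 2.52 for MRPS30 to 51.1 for MRPS21, a 20.3-fold range, with a median of 12.3. Of the genes, 16 had a mean of at least 20 FPKM, 37 lay from 5 to 20 and 6 lay under 5. The subunits covered almost the same range: the median of the gene means was 11.9 FPKM for the large and 13.1 FPKM for the small subunit. The 10 highest genes, 5 of each subunit, held 39.6% of the summed mean FPKM. Across the 59 genes the Pearson correlation of log2(FPKM + 1) was 0.935 between young 1 and old 1 and 0.949 between young 2 and old 2, against 0.725 between the young and 0.639 between the old libraries. Over all tested loci the same correlations were 0.948, 0.927, 0.712 and 0.701. These correlations are across genes, which are not independent replicates, and libraries of 1 number also shared their RNA composition.

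**Figure D1:**
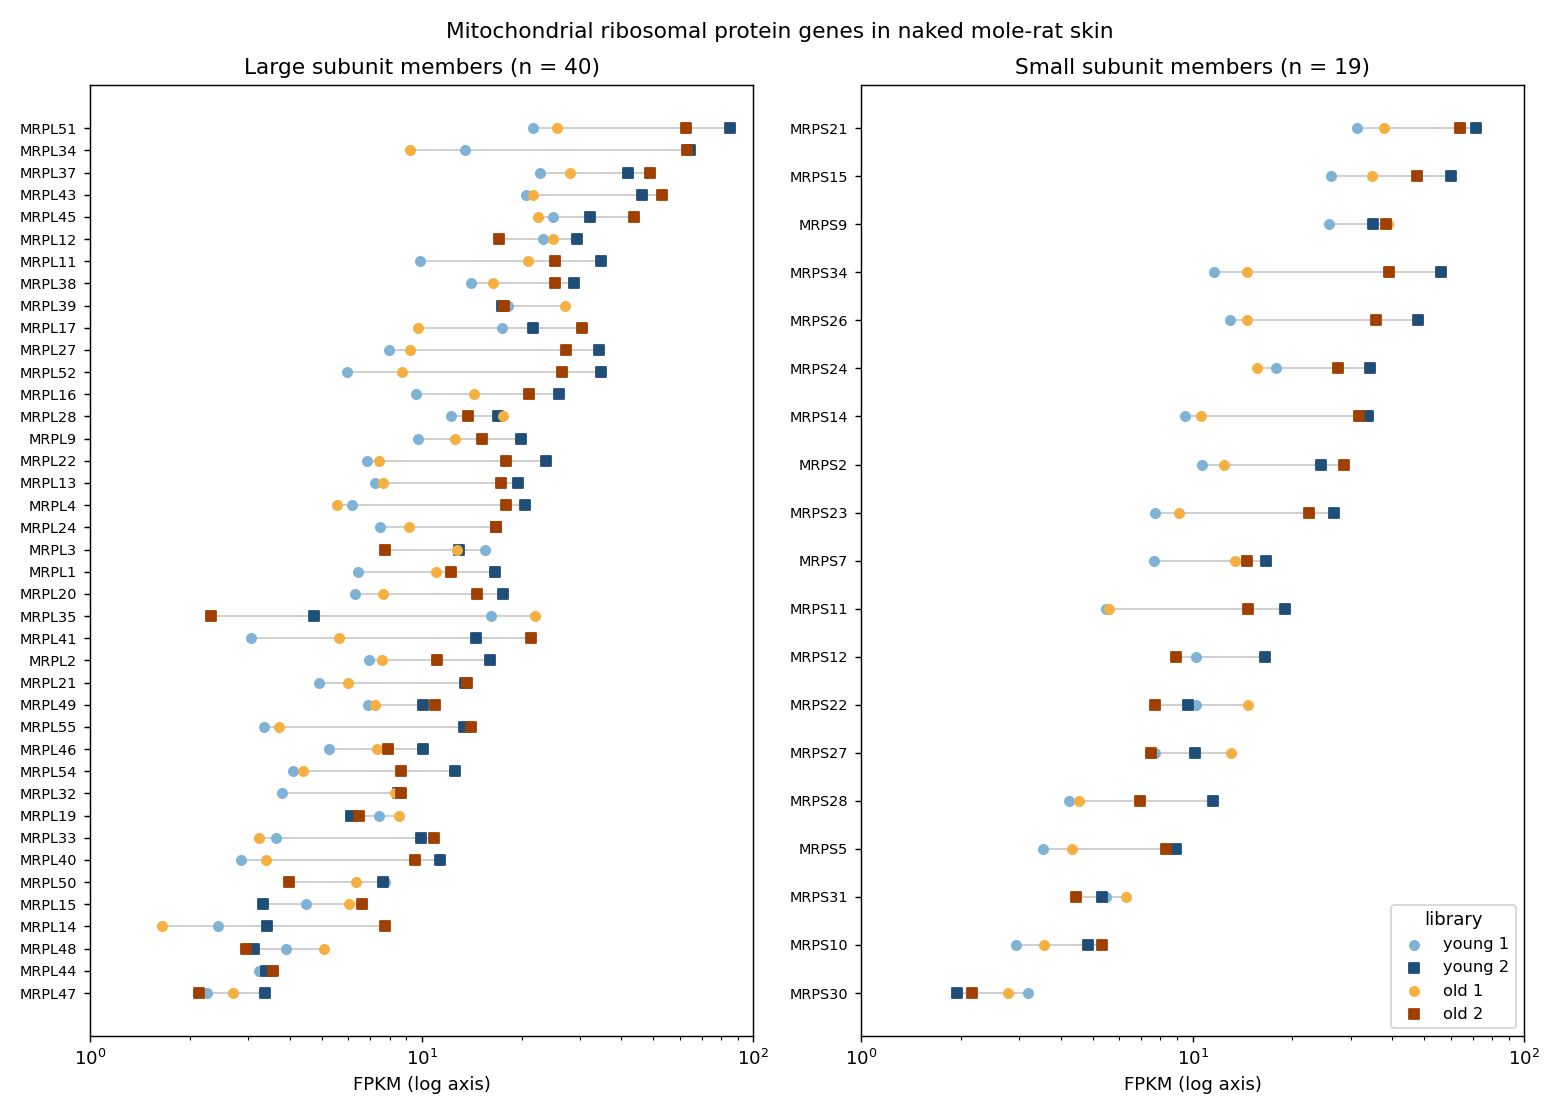
Level of each mitochondrial ribosomal protein gene in the 4 libraries, as FPKM on a log axis, for the large and the small subunit, with 1 point per gene and library. Most genes lie higher in young 2 and old 2 than in young 1 and old 1, and the 2 ages overlap for most genes.

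The highest gene was MRPS21, the counterpart of bacterial S21 in the small subunit. It had 31.4 and 71.5 FPKM in young 1 and young 2 and 37.7 and 63.9 in old 1 and old 2. Both number 2 libraries were above both number 1 libraries, and the ages overlapped. MRPL51, a large subunit protein found in mitochondria alone, had 21.7, 84.9, 25.7 and 62.6 FPKM in the same order of libraries. It too was high in number 2 and overlapped between ages. MRPS15, which binds the RNA of the small subunit, had 26.1, 60.0, 34.9 and 47.5 FPKM. Its old libraries lay between the 2 young ones. MRPL37, found in mitochondria alone, had 22.8, 42.0, 28.0 and 48.9 FPKM, and MRPL43 had 20.7, 46.3, 21.6 and 53.1. Both were higher in the old library of each number, by 0.29 and 0.21 on the log2(FPKM + 1) scale for MRPL37 and by 0.06 and 0.19 for MRPL43. MRPL45, a protein near the exit of the tunnel through which the new chain leaves, had 24.9, 32.3, 22.5 and 43.6 FPKM, lower in old 1 and higher in old 2.

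No mitochondrial ribosomal protein gene passed the test between ages, in a design of 2 libraries an age whose spread was set mostly by the library number. In limma on log2(FPKM + 1) with age as the single term, 0 of 59 were higher and 0 of 59 lower in old skin at a Benjamini-Hochberg adjusted p of 0.05, where 0% of all loci passed in either direction. At an unadjusted p under 0.05, 0 of the 59 genes stood in either direction, beside 0.196% of all loci higher and 0.416% lower. With the library number as a further term, again 0 were higher and 0 lower, beside 0.00784% and 0.0157% of all loci. In that fit 0 of the 59 genes had an unadjusted p under 0.05, beside 2.96% of all loci higher and 3.61% lower. The lowest unadjusted p among them was 0.0547, for MRPL41. The median SE of the age difference over the 59 genes was 0.62 on the log2 scale with age alone and 0.30 with the number as a term, and the median size of the difference was 0.13. Bulk tissue was measured, so fewer cells of a type and less RNA per cell cannot be told apart for any of these values.

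On the values as deposited, the most frequent pattern among these genes was a higher level in the old library of number 1 and a lower level in that of number 2. In number 1, 48 of 59 (81.4%) were higher in old skin, beside 58.7% of all loci, and 11 (18.6%) lower, beside 41.2%. In number 2, 40 of 59 (67.8%) were lower, beside 54.6%, and 19 (32.2%) higher, beside 44.4%. The median log2 difference, old minus young, was 0.20 in number 1 and -0.21 in number 2, against 0.07 and -0.06 over all loci. Higher in number 1 and lower in number 2 were 34 genes (57.6%), beside 31.5% of all loci. The reverse held for 5 (8.47%), beside 17.6%. Higher in old skin in both numbers were 14 genes (23.7%), beside 26.7%, and lower in both were 6 (10.2%), beside 23.1%. Once small structural RNA and mitochondrially encoded loci were left out of the totals, the class higher in number 1 and lower in number 2 held 25 genes (42.4%), beside 20.8% of all loci, and 20 (33.9%) were higher in both, beside 29.8%. These shares describe 2 pairs of libraries and carry no test.

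**Figure D2:**
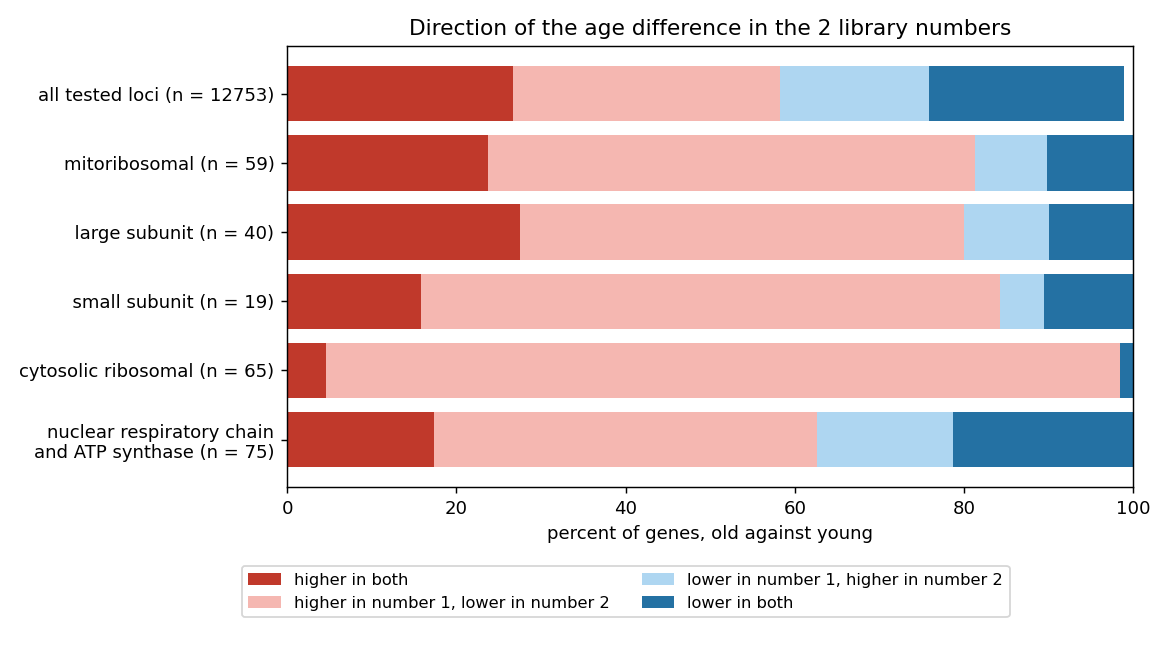
Share, in percent, of genes in each class of direction (higher in old skin in both numbers, lower in both, or opposite) for the mitochondrial ribosomal protein genes, their subunits, related lists and all tested loci. Loci with no difference in a number are in no class. The class higher in number 1 and lower in number 2 holds 57.6% of the mitochondrial ribosomal protein genes and 31.5% of all loci.

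The differences were mostly small. In both numbers 19 genes (32.2%) stayed within 0.25 on the log2 scale, as did 22.7% of all loci, and 0 of the 59 reached 1.5-fold in the same direction in both. At least 1.5-fold higher in old 1 were 7 genes (11.9%), beside 12.9% of all loci, and at least 1.5-fold lower in old 2 were 7 (11.9%), beside 23.1%. At least 1.5-fold lower in old 1 was MRPL17 alone (1.69%), beside 8.16%, and at least 1.5-fold higher in old 2 were MRPL14 and MRPL15 (3.39%), beside 15.8%. Both old libraries lay above both young ones for 3 genes (5.08%), beside 7.3% of all loci, and below them for 3 genes (5.08%), beside 6.46%. The 3 above were MRPL15, MRPS9 and MRPL44, and the 3 below were MRPL3, MRPL50 and MRPS12.

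**Figure D3:**
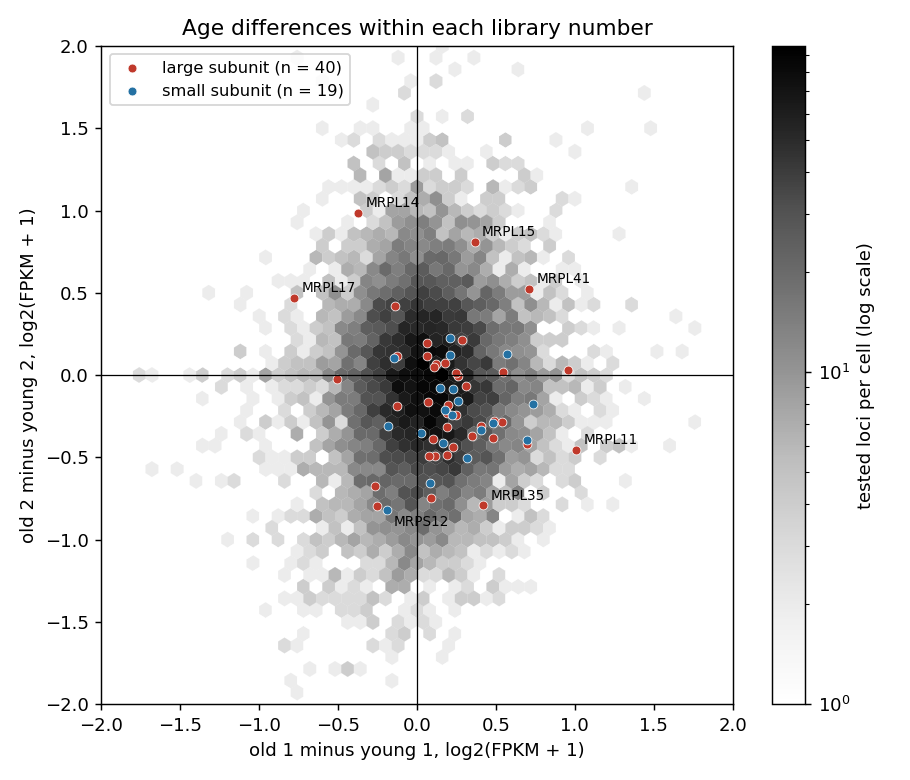
Difference between old and young skin on the log2(FPKM + 1) scale in number 1 (horizontal axis) and number 2 (vertical axis), with 1 point per gene, coloured by subunit, over all tested loci in grey, where darker cells hold more loci. Loci beyond 2 on either axis are not drawn. The mitochondrial ribosomal protein genes lie mostly to the right of 0 and below 0, around their medians of 0.20 and -0.21.

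Among large subunit genes higher in both old libraries, MRPL41, found in mitochondria alone and known to bind BCL2, had the largest mean difference. It had 3.05 and 14.6 FPKM in young 1 and young 2 and 5.63 and 21.4 in old 1 and old 2. The value was 1.85-fold higher in old than in young skin in number 1 and 1.47-fold higher in number 2, while the ages overlapped, since young 2 was above old 1. The log2 difference was 0.62 ± 0.27 (SE, limma with the number as a term, adjusted p = 0.773, 2 libraries an age). MRPL15, the counterpart of bacterial L15, had 4.47, 3.33, 6.04 and 6.60 FPKM. Both old libraries were above both young ones, 1.35-fold in number 1 and 1.98-fold in number 2, and the log2 difference was 0.59 ± 0.27 (limma, adjusted p = 0.802). MRPL32, which a mitochondrial protease must process before it joins the ribosome, had 3.78, 8.47, 8.29 and 8.69 FPKM. Young 1 alone was low, so its difference was 0.96 in number 1 and 0.03 in number 2. MRPL39, related in sequence to threonyl-tRNA synthetase, had 18.2, 17.4, 27.0 and 17.7 FPKM, with old 1 alone high. MRPL44, which has a fold like RNase III, had 3.22, 3.39, 3.56 and 3.55 FPKM and was named after its values were seen. Its ages did not overlap, but the differences were 0.11 and 0.05.

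Among small subunit genes, 3 were higher in both old libraries. MRPS9, whose bacterial counterpart reaches the transfer RNA at the decoding site, had 25.8 and 35.0 FPKM in young 1 and young 2 and 38.8 and 38.3 in old 1 and old 2. The ages did not overlap, and the log2 difference was 0.35 ± 0.33 (SE, limma with the number as a term, adjusted p = 0.994). MRPS2 had 10.7, 24.3, 12.5 and 28.6 FPKM, and MRPS10 had 2.94, 4.84, 3.56 and 5.34. For both, the old library was slightly higher in each number and the numbers differed by more than the ages.

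The genes lower in both old libraries were 4 of the large and 2 of the small subunit. MRPL50, found in mitochondria alone, had 7.76, 7.64, 6.35 and 3.97 FPKM in young 1, young 2, old 1 and old 2. Both old libraries were below both young ones, 1.22-fold in number 1 and 1.92-fold in number 2, and the log2 difference was -0.53 ± 0.28 (SE, limma with the number as a term, adjusted p = 0.879). MRPL3, whose bacterial counterpart reaches toward the site where peptide bonds form, had 15.6, 12.9, 12.8 and 7.74 FPKM. The ages did not overlap, by a narrow margin between young 2 and old 1, and the log2 difference was -0.47 ± 0.29 (limma, adjusted p = 0.923). MRPS12, a protein of the decoding site, had 10.2, 16.5, 8.84 and 8.90 FPKM. Both old libraries were below both young ones, with young 2 the highest, and the log2 difference was -0.51 ± 0.30 (limma, adjusted p = 0.911). MRPL34 had 13.5, 64.3, 9.22 and 63.2 FPKM, MRPL4, a protein that lines the exit tunnel in bacteria, had 6.18, 20.5, 5.57 and 17.9, and MRPS24 had 17.9, 34.4, 15.6 and 27.5. In these 3 genes the difference between ages was small beside that between numbers.

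**Figure D4:**
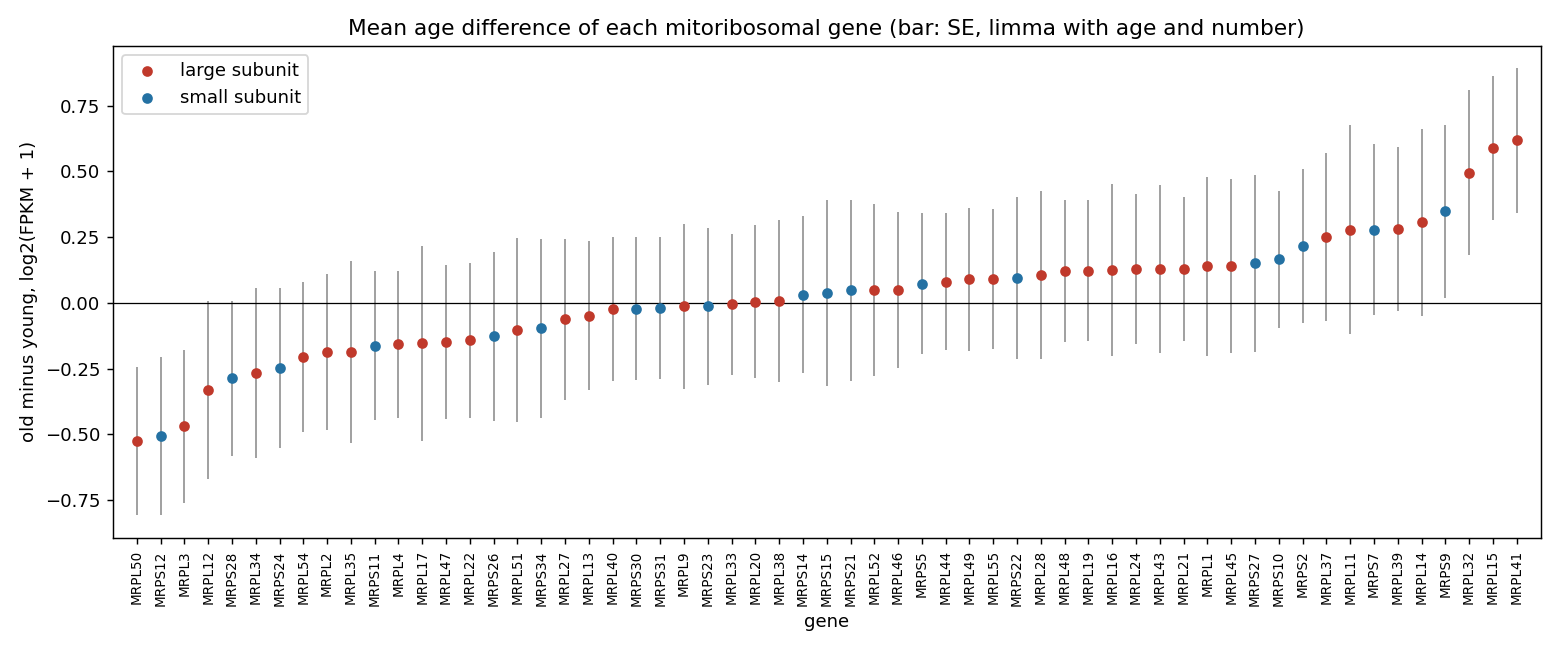
Difference between old and young skin for each of the 59 genes in order of size, on the log2(FPKM + 1) scale, from limma with age and library number as terms, with bars of 1 SE. The genes run from -0.53 for MRPL50 to 0.62 for MRPL41, and none passed the test at an adjusted p of 0.05.

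Some genes differed between ages in opposite directions in the 2 numbers by a wide margin. MRPL11, part of the stalk that recruits translation factors, had 9.90 and 34.8 FPKM in young 1 and young 2 and 20.9 and 25.2 in old 1 and old 2, which was 2.11-fold higher in old skin in number 1 and 1.38-fold lower in number 2. Both old values lay between the young ones. MRPL1, the protein of the L1 stalk, had 6.42, 16.7, 11.0 and 12.2 FPKM and the same order of libraries. MRPL35 had 16.2, 4.75, 22.0 and 2.32 FPKM, so old 1 was the highest and old 2 the lowest. In the other direction, MRPL14, to which the assembly factor MALSU1 binds, had 2.43, 3.43, 1.65 and 7.77 FPKM, and MRPL17, the counterpart of bacterial L17, had 17.5, 21.7, 9.75 and 30.5. For both, old 1 was the lowest and old 2 the highest of the 4 libraries.

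The ratio of the large to the small subunit did not separate the ages. The summed FPKM of the large subunit genes was 380.5 and 816.6 in young 1 and young 2 and 442.4 and 748.0 in old 1 and old 2, and that of the small subunit genes was 214.2, 494.1, 265.5 and 415.4. The ratio of these sums was 1.78 and 1.65 in young 1 and young 2 and 1.67 and 1.80 in old 1 and old 2, so that the highest and the lowest were a number 2 library each. The ratio averaged 1.73 in old and 1.71 in young skin, a difference of 0.0188 (two-sided exact permutation test over libraries, p = 0.667, with 0.333 the smallest p that 2 against 2 libraries allow). Within number 1 the sum was 1.16-fold higher in old skin for the large and 1.24-fold higher for the small subunit. In number 2 the old sums were 0.916 times the young for the large and 0.841 times for the small subunit. The median log2 differences of the large subunit genes were 0.19 in number 1 and -0.18 in number 2, and those of the small subunit genes 0.21 and -0.24. Of the large subunit genes 11 (27.5%) were higher and 4 (10%) lower in both numbers, beside 26.7% and 23.1% of all loci. Of the small subunit genes 3 (15.8%) were higher and 2 (10.5%) lower. MRPS30 sits in the large subunit despite its name, and counted there it left the ratio at 1.82, 1.66, 1.69 and 1.82.

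Genes grouped by origin showed like medians, while groups by place in the ribosome, of 2 to 5 genes each, varied more. The 37 genes with a bacterial counterpart had median differences of 0.19 in number 1 and -0.19 in number 2, and the 22 found in mitochondria alone had 0.21 and -0.22. MRPL11 and MRPL12, the stalk proteins, were both higher in old 1 and lower in old 2, with medians of 0.55 and -0.60. MRPL12, which is also known to bind the mitochondrial RNA polymerase, had 23.3, 29.4, 24.8 and 17.1 FPKM, with old 2 the lowest. The 4 genes of the central protuberance (MRPL38, MRPL40, MRPL46 and MRPL48) were likewise higher in old 1 and lower in old 2. Their medians were 0.25 and -0.21. The 5 genes classed here with the exit tunnel (MRPL22, MRPL24, MRPL44, MRPL45 and MRPL47) had medians of 0.11 and -0.01. MRPL4 was not counted in this class, so the medians depend on that choice. MRPS5, the gene linked to lifespan in worms, had 3.54 and 8.89 FPKM in young 1 and young 2 and 4.32 and 8.34 in old 1 and old 2, with both old values between the young ones. The values of MRPL12 and MRPS5 were chosen for description after they had been seen.

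The larger contrast lay between the library numbers. The summed FPKM of the 59 genes was 594.8 and 1311 in young 1 and young 2 and 707.9 and 1163 in old 1 and old 2, and their median FPKM was 7.65, 16.8, 9.13 and 14.7. Both number 2 libraries were high at both ages. In limma with age and number as terms, 25 of the 59 genes (42.4%) were higher in number 2, beside 13.9% of all loci, and 1 (1.69%) was lower, beside 29.1%. At both ages 43 genes (72.9%) were higher in number 2, beside 31.5%, and 9 (15.3%) were lower, beside 50.4%. The median log2 difference, number 2 minus number 1, was 0.84, against -0.28 over all loci. MRPL34 showed the largest difference among the 59 genes. It was 4.75-fold higher in number 2 in young and 6.85-fold higher in old skin, with a log2 difference of 2.41 ± 0.32 (SE, limma, adjusted p = 0.00189). MRPL52 came next with 1.93 ± 0.33 (limma, adjusted p = 0.00386). The genes that follow were named for their level or age difference, and others of similar size are not listed. MRPL41 differed by 1.85 ± 0.27 (limma, adjusted p = 0.00252), MRPS34, found in mitochondria alone, by 1.77 ± 0.34 (adjusted p = 0.00606) and MRPL51 by 1.59 ± 0.35 (adjusted p = 0.00998). MRPS34 had 11.6, 56.0, 14.6 and 39.1 FPKM, and MRPS26 had 12.9, 47.9, 14.6 and 35.7. The gene lower in number 2 was MRPL35, the counterpart of bacterial L35, with -2.19 ± 0.35 (limma, adjusted p = 0.00313).

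These counts depended on how the libraries were scaled. After median-of-ratios scaling 38 of the genes were higher in number 2, beside 20.1% of all loci, and after removal of small structural RNA and mitochondrially encoded loci from the totals 15 were higher, beside 5.57%, and 9 lower, beside 49.9%. In all 3 scalings 15 genes passed as higher, MRPL34, MRPL41, MRPL51 and MRPS34 among them, and MRPL35 passed as lower. The genes' median difference between numbers was 0.84 as deposited, 1.14 with median-of-ratios scaling and 0.21 without those RNAs. All loci had -0.28, -0.01 and -0.80 in the same order. The genes' median thus lay above that of all loci by 1.12, by 1.15 with median-of-ratios scaling and by 1.01 without those RNAs. Between ages, the medians of 0.20 and -0.21 became 0.13 and -0.15 with median-of-ratios scaling and 0.15 and -0.05 without those RNAs, where the medians of all loci were 0.01 and 0.07. As a share of the summed FPKM of the remaining loci, the 59 genes took 0.316% and 0.402% in young 1 and young 2 and 0.358% and 0.409% in old 1 and old 2, higher in the old library of each number but overlapping between ages (two-sided exact permutation test over libraries without regard to number, p = 0.667, where 0.333 is the smallest possible).

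**Figure D5:**
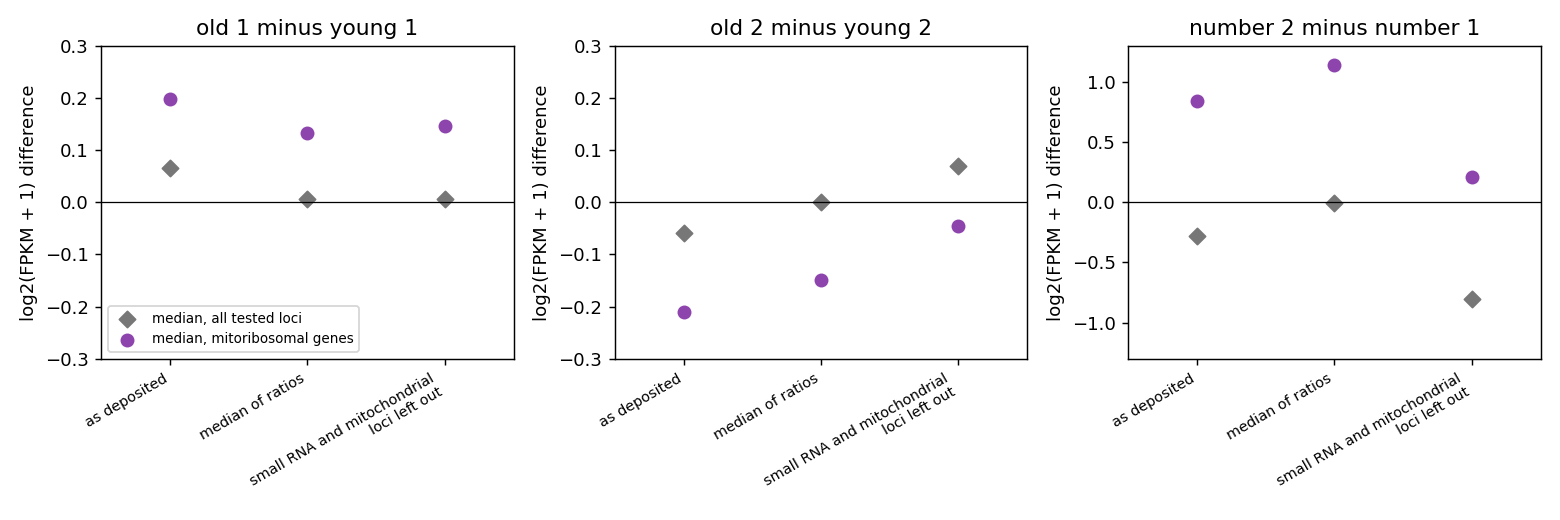
Median difference between old and young skin on the log2(FPKM + 1) scale in each library number, and between the numbers in the right panel, for the mitochondrial ribosomal protein genes and for all tested loci, under 3 scalings of the libraries. The genes' median is above 0 in number 1 and below 0 in number 2 under each scaling, at -0.05 in number 2 without small structural RNA and mitochondrially encoded loci.

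The cytosolic ribosomal proteins, parts of the ribosome outside mitochondria, split the same way and more widely. Of 65 tested, 61 (93.8%) were higher in old 1 and lower in old 2, beside 31.5% of all loci, with medians of 0.55 and -0.41. In limma, 47 (72.3%) were higher in number 2, beside 13.9%, with a median of 2.05. This count was 56 with median-of-ratios scaling, beside 20.1%, and 40 without small structural RNA and mitochondrially encoded loci, beside 5.57%. Their summed FPKM was 21.8 and 58.5 times that of the mitochondrial ribosomal protein genes in the young and 28.0 and 49.6 times in the old libraries. The nuclear genes of the respiratory chain and ATP synthase, 75 tested, had medians of 0.08 in number 1 and -0.13 in number 2. Of these, 13 (17.3%) were higher and 16 (21.3%) lower in both, beside 26.7% and 23.1% of all loci. In limma, 41 (54.7%) of the 75 were higher in number 2, beside 13.9% of all loci, with a median of 1.20. In that fit 1 (1.33%) was lower, beside 29.1%. The summed FPKM of these 75 genes was 5.24, 6.92, 4.66 and 7.75 times that of the mitochondrial ribosomal protein genes. The mitochondrially encoded genes, whose messengers the mitochondrial ribosome translates, had sums 38.9, 75.4, 25.5 and 103 times theirs, highest in old 2 and lowest in old 1. Of 10 tested, 6 (60%) were higher in number 2 in limma and 0 lower, with a median of 2.79. Of 21 mitoribosome assembly factors, 2 (9.52%) were higher and 4 (19.0%) lower in number 2.

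Genes that build or serve the mitochondrial ribosome showed no call either. Over 13 lists of mitochondrial genes with 181 tested members, the mitochondrially encoded genes included, 0 passed with age alone and 0 with the number as a term, and 2 (1.1%) had an unadjusted p under 0.05 in the latter fit, beside 2.96% of all loci higher and 3.61% lower. Over all loci 26.7% were higher and 23.1% lower in both numbers. Among 21 assembly factors, 6 (28.6%) were higher and 3 (14.3%) lower in both old libraries, with medians of 0.04 and 0.22. METTL17, which is needed for assembly of the small subunit, had 5.45 and 7.64 FPKM in young 1 and young 2 and 2.99 and 4.40 in old 1 and old 2, with both old libraries below both young ones (log2 difference -0.69 ± 0.26, limma with the number as a term, adjusted p = 0.676). Among 12 translation factors 2 (16.7%) were higher and 4 (33.3%) lower in both, with medians of 0.02 and -0.36. Among 18 genes for aminoacyl-tRNA synthesis, 3 (16.7%) were higher and 5 (27.8%) lower in both, with medians of 0.03 and -0.07. AARS2, the alanyl-tRNA synthetase of mitochondria, had 2.58, 3.37, 3.82 and 4.47 FPKM. Among 18 genes of mitochondrial transcription, RNA handling and DNA upkeep, 7 (38.9%) were higher and 5 (27.8%) lower in both. POLRMT, the mitochondrial RNA polymerase, had 5.13, 7.96, 6.04 and 10.9 FPKM. Of 12 chaperones and proteases 7 (58.3%) were higher and 2 (16.7%) lower in both, with medians of 0.20 and 0.20. CLPX, the unfolding partner of the ClpP protease, had 21.8, 13.5, 27.1 and 26.2 FPKM, with old 1 and old 2 above young 1 and young 2 (adjusted p = 0.873 in limma). The 36 complex I subunits had medians of 0.13 and -0.18, with 5 (13.9%) higher and 10 (27.8%) lower in both. NDUFB8 had 3.83, 7.12, 7.80 and 11.3 FPKM (log2 difference 0.73 ± 0.27, limma, adjusted p = 0.650).

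Loci described as mitochondrial ribosomal proteins but outside the naming rule, MRPS36 among them, gave like medians between ages. Of 11 loci named by their description alone or with a symbol that ends in a letter, 2 (18.2%) were higher in both old libraries. In both, 1 (9.09%) was lower, and the medians were 0.19 and -0.24. Over all loci the shares were 26.7% and 23.1%. MRPL36 had 10.3 and 45.1 FPKM in young 1 and young 2 and 9.83 and 57.5 in old 1 and old 2, and MRPS36, since assigned to the oxoglutarate dehydrogenase complex, had 5.97, 52.1, 9.45 and 50.7. Both were high in number 2 at each age. MRPS35, with 16.5, 15.6, 15.9 and 15.9 FPKM, and MRPL18, with 11.8, 22.7, 13.6 and 11.3, were not higher there at both ages. Of the 11 loci, 8 (72.7%) were higher in number 2 at both ages, beside 31.5% of all loci. None was lower at both, beside 50.4%. MRPL36, MRPS36, MRPS35 and MRPL18 were chosen after their values were seen. Further genes share a locus with a neighbour (MRPL10, MRPL53, MRPS6, MRPS16 and MRPS18B), and their values cannot be told apart from the partner's. MRPL46 and MRPS11 are neighbours in the RefSeq annotation of H.glaber_assembly_v1.0. Their differences were 0.41 and -0.31 for MRPL46 and 0.02 and -0.35 for MRPS11, and whether the values used strand is not stated.

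Markers of other cell types moved between the libraries as well. The skin label was borne out by keratinocyte markers, 4 of 5 found, with summed FPKM of 2183 and 5280 in young 1 and young 2 and 2259 and 4144 in old 1 and old 2. KRT10 made up most of each sum. KRT5 had 662, 1361, 700 and 402 FPKM, DSG1 had 221, 88.1, 229 and 46.5 and TP63 had 14.4, 7.48, 7.69 and 2.56, so that these 3 were lowest in old 2. Skeletal muscle markers, 6 of 9 found, summed to 3099, 3944, 3791 and 5339 FPKM, higher in the old library of each number. Of these markers 4 were higher in both numbers, CKM was lower in both, and MB was lower in old 1 and higher in old 2. Adipocyte markers, 5 of 6 found, summed to 427, 249, 676 and 138 FPKM, and the 4 tested were higher in old 1 and lower in old 2, as were the 3 Schwann cell markers, with sums of 22.9, 39.3, 42.6 and 21.8 FPKM. UCP1 was at the floor in 3 of the libraries. Of the dermal fibroblast markers, 4 of 5 found, COL3A1 had 2734, 2623, 223 and 20.8 FPKM and COL1A2 had 1140, 1793, 133 and 23.1, while DCN had 204, 248, 197 and 140 and LUM had 61.0, 40.1, 60.7 and 8.20. The collagens were low in both old libraries, and DCN and LUM were clearly lower in old 2 alone. Melanocyte markers, 4 of 4 found, summed to 36.8, 97.6, 12.6 and 44.6 FPKM, with 3 of 4 lower in both old libraries. Immune markers, 4 of 4 found, summed to 19.9, 49.6, 16.6 and 23.1 FPKM, also with 3 of 4 lower in both. Smooth muscle markers, 3 of 4 found, summed to 165, 200, 323 and 421 FPKM, and DES, also a skeletal muscle gene, made up most of each sum. ACTA2 had 14.3, 14.6, 13.9 and 2.80 FPKM, lower in both old libraries. MYH11 had 4.10, 2.87, 5.70 and 2.86, higher in old 1 only. Endothelial markers, 3 of 3 found, summed to 72.8, 44.4, 60.0 and 47.3 FPKM. The part of these cell types, and of the RNA composition of the libraries, in the differences of the mitochondrial ribosomal protein genes was not tested.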

How the data were processed

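Full-thickness dorsal skin was sequenced as total RNA after Ribo-Zero Gold removal of ribosomal RNA, per the labels' protocols. Bowtie2, TopHat2, cutadapt and FastQC appear, with no version, per the submitters' processing notes. Which build, annotation and quantification tool were used is not given in the sources used here, so no coordinates are printed. The authors deposited FPKM values in 4 tables of 24514 loci with a floor of 0.0001, and each table was taken as 1 library. Depth is unknown and no counting error can be given.

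Ages were compared by fitting log2(FPKM + 1) in limma 3.58.1 (R 4.3.3) over the 12753 loci whose mean reached 1 FPKM, with a mean-variance trend, two-sided tests and Benjamini-Hochberg adjustment over all of them at 0.05. Fold changes on this scale understate those of low genes, while folds of FPKM carry no pseudocount. The members, gene lists and tests were chosen with earlier results of these data known. Within subunits the text names the 5 genes of highest mean and up to 4 per direction of largest mean difference with 1 sign in both numbers, then the 3 per direction whose numbers differ most, and in lists the 2 of lowest p. Not every list gene so named is printed. MRPL12, MRPL44, MRPL46, MRPL52, MRPS5, MRPS11, MRPS30, MRPL18, MRPL36, MRPS35 and MRPS36 fall outside this rule. So do the genes named only as part of the central protuberance or the exit tunnel, and the cell type markers. The fits were also run on simulated data, with an outcome that is not reported here, so that run lends them no support. The RefSeq gene table of H.glaber_assembly_v1.0, which holds all 59 symbols, served for neighbours. It also gave a symbol to 1413 loci named by an Ensembl identifier, used to find list and marker genes but not the 59 genes. The library numbers split the libraries: deviations from the age means correlated at 0.823 between young 1 and old 1 over all loci. With 2 libraries an age this gives no pairing by animal, and the number was used as a term in an alternative. Other settings were the pseudocount, the filter, the scaling, the moderation and each library left out. Python 3.11.15, pandas 2.3.3 and matplotlib 3.10.9 were used.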

Additional observations from a re-analysis of the deposited data

How the results depend on the processing

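No mitochondrial ribosomal protein gene passed the age test under any of the settings tried, and the medians of the 59 genes kept their sign in each number under all of the settings run for them. With the replicate block, the library number as a term, 1 locus of all tested was higher and 2 were lower in old skin, and the counts were the same without the trend. With that term and without small structural RNA and mitochondrially encoded loci, 2 were lower, and with that term and median-of-ratios scaling 0 were higher and 0 lower (limma, 357 and 459 at an unadjusted p under 0.05). Leaving out each library in turn gave 0 to 24 loci higher and 0 to 32 lower. Without young 1 there were 24 higher and 7 lower, without old 1 6 and 32, without young 2 0 and 2, and without old 2 0 and 0. The genes higher in number 2 numbered 38 (64.4%) with median-of-ratios scaling, beside 20.1% of all loci. Without small structural RNA and mitochondrially encoded loci 15 (25.4%) were higher, beside 5.57%, and 9 (15.3%) lower, beside 49.9%. The cause was not tested. The number term could not be fitted with a library left out, since 3 libraries leave no residual degrees of freedom. Summing the loci of a symbol changed nothing, as each symbol had 1 locus. The settings that combine the number term with another choice, and the loci named by description alone, were added after seeing the data. With those loci the median of the small subunit genes over both numbers went from 0.03 to -0.01.

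Of 26 named genes, 20 changed the sign of their age difference when a library was left out, 0 did so in another alternative and 6 in none. Those 20 ran over the following log2 ranges, with no call: MRPL1 -0.49 to 0.76, MRPL11 -0.58 to 1.14, MRPL14 -0.56 to 1.17, MRPL17 -0.93 to 0.62, MRPL34 -1.59 to 1.06, MRPL35 -1.58 to 1.21, MRPL37 -0.18 to 0.68, MRPL39 -0.013 to 0.57, MRPL4 -0.95 to 0.63, MRPL41 -0.35 to 1.59, MRPL43 -0.50 to 0.76, MRPL45 -0.32 to 0.60, MRPL51 -1.06 to 0.86, MRPS10 -0.12 to 0.45, MRPS15 -0.55 to 0.62, MRPS2 -0.35 to 0.78, MRPS21 -0.53 to 0.63, MRPS24 -0.70 to 0.21, MRPS26 -1.03 to 0.78 and MRPS34 -1.19 to 0.99. When a library is left out, the lone library of its age is assumed to vary like the others, and its age difference then also holds the difference between numbers.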
